A study of Rattus norvegicus with 2 samples.

Results

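Skeletal muscle turns an electrical signal into force through a small set of membrane and calcium-binding proteins, and 10 genes of that set were followed here in rat esophagus: Cacna1s, Cacng1, Ryr1, Atp2a1, Casq1, Casq2, Trdn, Jsrp1, Tmem38a and Pvalb. They were taken as all probe sets that the array's annotation assigns to exactly 1 gene with one of these symbols, which gave 16 probe sets for the 10 genes, out of 14217 genes measured. The genes were put together with the difference between the arrays already known, so the differences below describe the choice and are given without a test. The study compared esophageal tissue of male Sprague-Dawley rats, an outbred laboratory strain, after OSU-HDAC42, an inhibitor of histone deacetylases, with esophageal tissue after vehicle. Both were given by gavage to rats bought at 5 to 6 weeks of age. The drug group received 7 doses of 50 mg/kg over 15 days, 350 mg/kg in total, and tissue was taken 24 hours after the last dose. Each group had 1 array. The labels leave unsaid how many rats gave RNA to an array and which layers of the organ were included.

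In a skeletal muscle fibre the action potential runs down the transverse tubules, where the voltage sensor, an L-type calcium channel, touches the ryanodine receptor of the sarcoplasmic reticulum and opens it. Calcium leaves the store, the myofibrils contract, and the SERCA pump returns the calcium, which calsequestrin holds inside the store. The rodent esophagus has a muscle coat of mostly skeletal muscle, beside the smooth muscle of its mucosa and vessels, so this apparatus is part of normal esophageal tissue. In whole tissue, fewer muscle fibres and less RNA per fibre cannot be told apart.

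In the OSU-HDAC42 sample 6 of the 10 genes were between 2.82-fold and 3.82-fold lower than in the vehicle sample: the release channel Ryr1, the pump Atp2a1, the store buffer Casq1, the junction proteins Trdn and Jsrp1 and the counter-ion channel Tmem38a. The voltage sensor Cacna1s was 1.87-fold lower. The second calsequestrin, Casq2, and the cytosolic calcium buffer Pvalb had nearly equal intensities on both arrays, and Cacng1 was too dim to be measured. A gene was counted as 2-fold lower when its log2 intensity after OSU-HDAC42 was at least 1 below that after vehicle and its brighter array reached 49.8, the median of all probe set means, called the expression floor. Intensities under 16 were raised to 16 first. Of the 9 member genes above that floor, 6 were 2-fold lower and none was 2-fold higher. Of all 9542 genes above it, 3.18% were 2-fold lower and 1.88% 2-fold higher. By probe set, 7 of the 10 member probe sets above the floor were 2-fold lower, against 2.81% of all single-gene probe sets above it. Because the members were chosen from this same contrast, nothing can be read from the gap between these shares. With 1 array per group there is no error between rats, and a gene cannot be said to overlap or not between groups. The only error at hand is that of the probes: where a gene had several probe sets above the floor (2116 genes), the gap between the log2 differences of a pair of them had an SD of 0.42.

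The stretches of DNA just before the start sites of 4 of these genes are shown first. They belong to Ryr1, Atp2a1 and Casq1, which were lower, and to Casq2, a relative of Casq1 with nearly equal intensities on both arrays. The 4 were picked with these values known. Each run holds the 250 bases before the start site, 5′ to 3′ on the gene's strand, from RefSeq on the GRCr8 rat assembly. Capitals mark E-boxes, spelled CANNTG, the sequence bound by myogenic factors of the MyoD family and many other helix-loop-helix proteins, and the motif of MEF2, a factor of muscle gene transcription. The Ryr1 run is chr1:93551306-93551555 (minus strand), the Atp2a1 run chr1:190475411-190475660 (minus strand), the Casq1 run chr13:87212711-87212960 (minus strand) and the Casq2 run chr2:192214306-192214555 (plus strand).
Ryr1: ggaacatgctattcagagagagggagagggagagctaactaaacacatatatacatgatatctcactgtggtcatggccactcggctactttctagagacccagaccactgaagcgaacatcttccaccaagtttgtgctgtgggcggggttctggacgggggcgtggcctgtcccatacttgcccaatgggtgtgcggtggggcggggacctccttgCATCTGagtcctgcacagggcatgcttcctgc
Atp2a1: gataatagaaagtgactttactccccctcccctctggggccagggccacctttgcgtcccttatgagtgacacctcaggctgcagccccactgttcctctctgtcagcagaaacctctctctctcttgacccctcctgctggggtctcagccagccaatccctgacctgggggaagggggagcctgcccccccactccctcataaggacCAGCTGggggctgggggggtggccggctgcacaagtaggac
Casq1: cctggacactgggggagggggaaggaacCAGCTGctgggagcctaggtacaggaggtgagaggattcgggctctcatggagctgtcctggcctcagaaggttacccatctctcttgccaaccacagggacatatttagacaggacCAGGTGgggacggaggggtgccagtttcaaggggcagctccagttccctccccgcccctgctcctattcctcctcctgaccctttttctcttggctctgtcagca
Casq2: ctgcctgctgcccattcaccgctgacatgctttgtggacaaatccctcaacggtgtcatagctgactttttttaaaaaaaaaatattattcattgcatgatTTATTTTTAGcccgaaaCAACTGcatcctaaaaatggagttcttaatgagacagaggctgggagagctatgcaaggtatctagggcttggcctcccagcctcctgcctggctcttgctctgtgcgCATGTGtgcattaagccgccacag

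Promoters were found for 9 of the 10 genes, all but Cacng1. The start used for Trdn, Jsrp1 and Pvalb was not the outermost start of the gene. Both strands were searched. An E-box stood in 7 of the 9, all but Trdn and Tmem38a, against 65.5% of all 33469 promoters. The E-box form CAGCTG stood in 4 of the 9 (Cacna1s, Atp2a1, Casq1 and Jsrp1), against 12.0% of all. The MEF2 motif stood in 1, that of Casq2, from 149 to 140 bases before its start, against 2.96% of all promoters. The CArG box, bound by serum response factor, stood in none of the 9 and in 1.5% of all, and the MCAT motif CATTCC stood in 2 of the 9 (Cacna1s and Tmem38a) and in 12.1% of all. CAGCTG is one spelling of CANNTG, so these counts overlap. Casq1 and Casq2 each have 2 E-boxes, one of which is CAGCTG in Casq1 and neither of which is in Casq2. A match describes the sequence and does not show that a factor was bound. A link between the motifs and the differences was not tested.

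The voltage sensor comes first in the chain. Cacna1s, the pore subunit of the skeletal L-type channel that senses the tubule voltage, read 32.8 after OSU-HDAC42 and 61.2 after vehicle. Its log2 difference was -0.90, which put it at rank 412 from the lowest among the 9542 genes above the floor. The vehicle array passed the floor by little and the OSU-HDAC42 array lay under it. Cacng1, the gamma subunit of the same channel, stood at 14.7 and 15.2, both under 16, so no difference was measured for it.

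Ryr1, the ryanodine receptor through which calcium leaves the store, stood at 818 in the drug sample and 2304 in the vehicle sample. The difference was -1.49, rank 76 of the 9542. Atp2a1 encodes SERCA1, the calcium pump of fast fibres, which refills the store. It stood at 343 after OSU-HDAC42 and 1138 after vehicle, a difference of -1.73 (3.31-fold lower). Each of these genes was measured by 1 probe set, so their values have no second reading on the array.

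Inside the store, the calsequestrins bind calcium in bulk. Casq1, the main form of fast fibres, stood at 86.1 after OSU-HDAC42 and 278 after vehicle, a difference of -1.69. Casq2, the form of heart that slow fibres also use, stood at 277 and 302, a difference of -0.12. Its second probe set, under the floor at 29.4 and 28.1, differed by 0.066. The Casq1 and Casq2 differences were 1.57 apart on the log2 scale, a value given as a description because both genes were chosen from this contrast.

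The junction between tubule and store is held by Trdn and Jsrp1. Trdn, or triadin, anchors calsequestrin to the release channel. Its brightest probe set stood at 384 after OSU-HDAC42 and 1318 after vehicle, a difference of -1.78. The next Trdn probe set stood at 37.4 and 112 and differed by -1.59. Of the other 2 Trdn probe sets, one stood at 9.81 and 22.4, at least 1.40-fold lower, and one was under 16 on both arrays at 5.10 and 13.0, so no difference was measured on it. The brighter pair passed the floor, the dimmer of them on the vehicle array only, and both of them were 2-fold lower. Jsrp1, also called JP-45, links the voltage sensor to calsequestrin. It stood at 33.8 after OSU-HDAC42, under the floor, and 129 after vehicle, a difference of -1.93 (3.82-fold lower). Jsrp1 ranked 17 from the lowest of all genes above the floor, the lowest rank of the members.

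Tmem38a, or TRIC-A, is a cation channel of the reticulum that lets counter-ions flow while calcium leaves. Its brightest probe set stood at 119 after OSU-HDAC42 and 360 after vehicle, a difference of -1.60. The other 2 probe sets of Tmem38a were under the floor. One stood at 27.7 and 30.7 (difference -0.15) and one at 17.8 and 31.9 (difference -0.85), so the size of the Tmem38a difference rests on 1 probe set. With the mean of all its probe sets Tmem38a differed by -0.86, and Trdn by -0.96, which left 4 of the members 2-fold lower. Pvalb encodes parvalbumin, a soluble buffer that binds calcium in the cytosol of fast fibres and speeds relaxation. It stood at 823 after OSU-HDAC42 and 852 after vehicle, a difference of -0.051, near the middle of all genes above the floor (rank 4525).

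**Figure D1:**
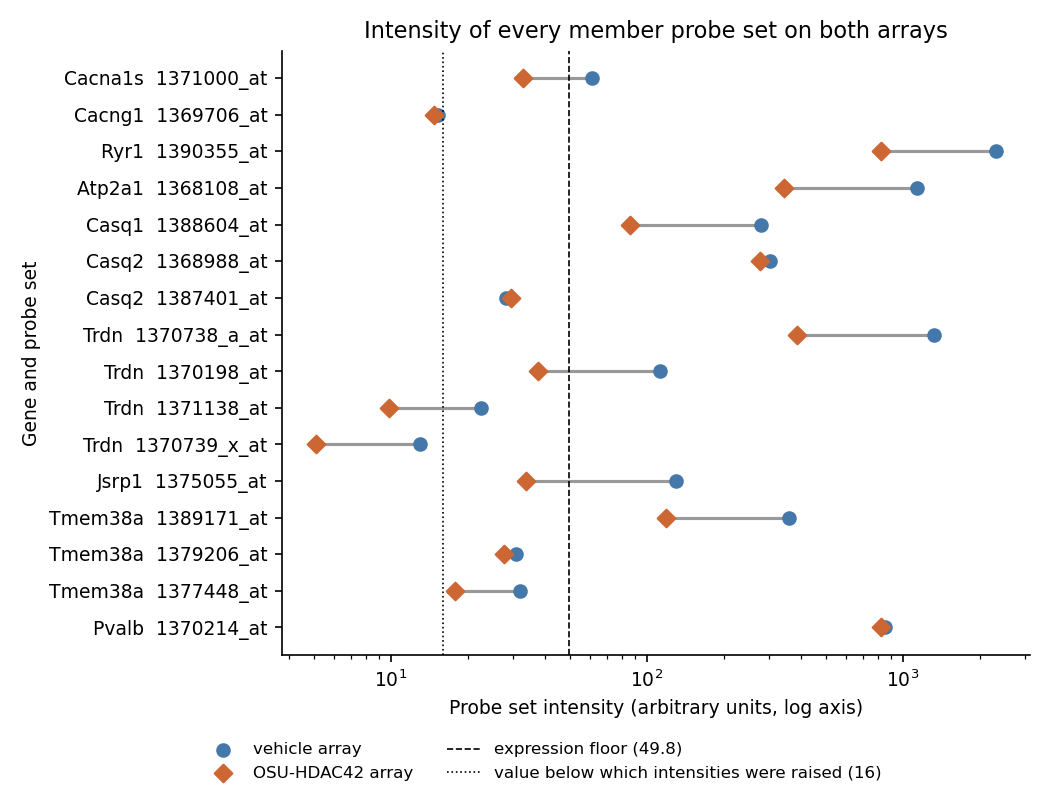
Intensity of all 16 member probe sets on a log axis, with a circle for the vehicle array, a diamond for the OSU-HDAC42 array, a dashed line at the expression floor of 49.8 and a dotted line at 16. On the brightest probe set of each gene, the long grey bars of Ryr1, Atp2a1, Casq1, Trdn, Jsrp1 and Tmem38a contrast with the touching symbols of Casq2, Pvalb and Cacng1.

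The members that passed the 2-fold threshold lay between -1.93 and -1.49, and the other 3 above the floor at -0.90, -0.12 and -0.051. Among the 7911 genes with mean intensities in the range of the members, 47.0 to 1561, 3.4% were 2-fold lower, close to the share over all genes above the floor. A difference of -1.49 or lower was found in 76 genes, 0.796% of those above the floor, and 6 of the 76 were the members just described. This cut-off is the value of Ryr1, the least lowered of the 6, so all 6 reach it by construction. The median over the 9 members above the floor was -1.60, and over all genes above it -0.027.

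**Figure D2:**
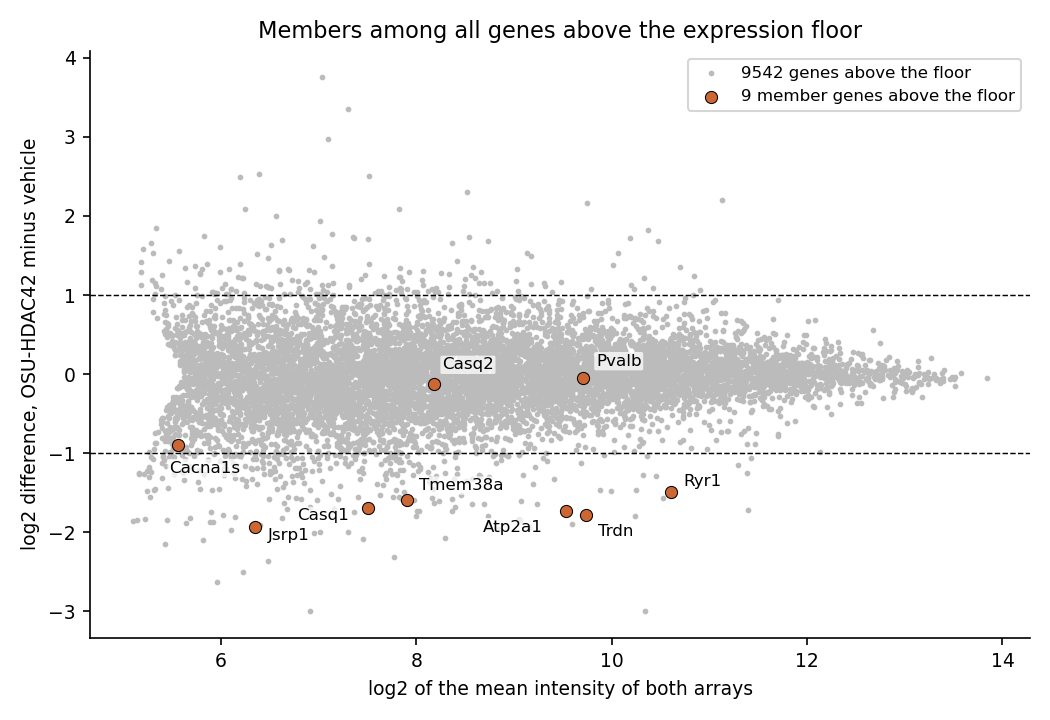
The log2 difference (OSU-HDAC42 minus vehicle) of 9542 genes above the floor in grey and of 9 member genes in orange, against the log2 mean intensity of both arrays, with dashed lines at 2-fold. Of the members, 6 lie at or below -1.49, the value of Ryr1, among 76 genes at that level. Cacna1s lies near the 2-fold line and Casq2 and Pvalb lie near 0.

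Several members have relatives that do the same work in other tissues. Most of these were not 2-fold lower, but Ryr2 was, and Ryr3 and Ocm were lower by less. The difference of Ocm lay below that of its relative Pvalb. Because the members were chosen from this contrast, the gaps between members and relatives are given as a description. Among the release channels, Ryr2, the receptor of heart, stood at 73.5 after OSU-HDAC42 and 153 after vehicle (difference -1.06), and Ryr3 at 39.4 and 55.1 (difference -0.48). A second Ryr2 probe set was under 16 on both arrays.

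Among the pumps, Atp2a2, the SERCA2 gene of slow fibres, heart, smooth muscle and most other cells, stood at 4976 after OSU-HDAC42 and 4942 after vehicle (difference 0.0098). Atp2a3, a pump of several non-muscle cells, stood at 679 and 578 (difference 0.23). The Atp2a1 difference was lower than that of Atp2a2 by 1.74. The small pump inhibitors went in opposite directions. Sln, sarcolipin, a partner of SERCA in skeletal muscle and atrium, was 2.18-fold lower at 519 against 1130, while Pln, phospholamban of heart, slow and smooth muscle, stood at 339 against 195 (difference 0.80) on its brightest probe set and differed by 1.40 on a second one above the floor.

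The other TRIC channel, Tmem38b, which most tissues use, stood at 1447 after OSU-HDAC42 and 870 after vehicle, a difference of 0.73. This is 2.33 above that of Tmem38a. On the brightest probe sets it was the widest gap of the member and relative pairs with both genes above the floor. With the mean of all probe sets it was not the widest. Tmem38a then differed by -0.86 and Tmem38b by 0.55, while Atp2a1 differed by -1.73 and Atp2a3 by 0.085. A second probe set of Tmem38b above the floor differed by 0.36. Among the channels, Cacna1c, the L-type pore of heart and smooth muscle, stood at 112 and 63.4 (difference 0.83), which is 1.73 above that of Cacna1s, while its second probe set read 20.1 on both arrays. Cacna1d and Cacna1h, pores of other calcium channels, were under the floor and differed by 0.21 and 0.22. The beta subunits showed the same order on their brightest probe sets. Cacnb1, the skeletal form, stood at 38.6 after OSU-HDAC42, under the floor, and 53.4 after vehicle (difference -0.47). Its second probe set, under the floor, differed by -0.066. Cacnb3 differed by 1.03 and Cacnb2, a form of heart and smooth muscle, by 1.25, although a second Cacnb2 probe set under the floor differed by 0.56. Cacng4 and Cacng6, relatives of Cacng1, were under the floor, Cacng6 under 16 on both arrays. Oncomodulin, Ocm, the second parvalbumin of mammals, stood at 907 and 1219 (difference -0.43), and Calb1 and Calb2, buffers known from neurons, were under 16 on both arrays.

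**Figure D3:**
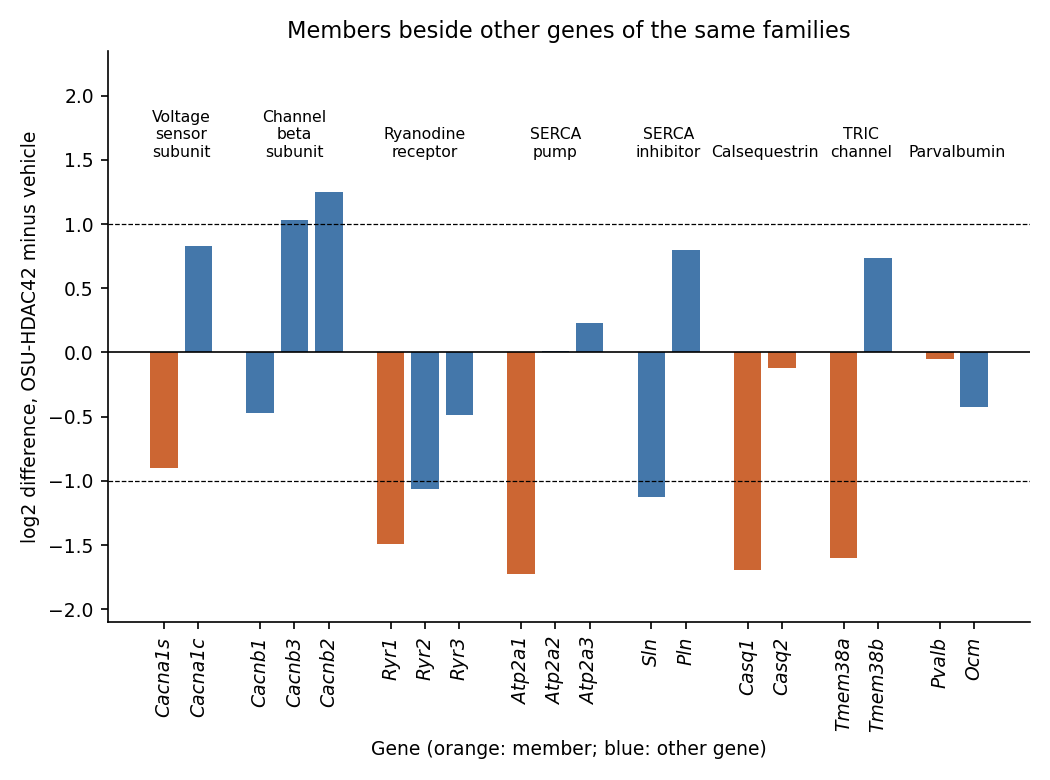
Log2 differences (OSU-HDAC42 minus vehicle) by gene family, with members in orange, relatives in blue and dashed lines at 2-fold. In the channel, pump and TRIC families the skeletal form is the lowest bar, Atp2a2 stands at 0.0098, and the relatives Cacnb2, Cacnb3, Cacna1c, Pln and Tmem38b are between 0.73 and 1.25.

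Over the whole list of 27 measured relatives and isoforms of other tissues, 19 were above the floor. Of these, 1 was 2-fold lower and 2 were 2-fold higher, and their median was 0.084. Over all genes above the floor the shares were 3.18% and 1.88%. Cacnb2 (59.2 after OSU-HDAC42, 24.9 after vehicle) and Cacnb3 (82.7 and 40.5), the 2 higher, reached the floor on the OSU-HDAC42 array only. Cacnb2, one of those higher, did not reach 2-fold with values under 32 raised to 32 (0.89) and with the mean of all probe sets (0.60), and the lower one, Ryr2, with the mean of all probe sets (-0.53). Smooth muscle genes were higher in the same sample: all 10 listed markers were above the floor and higher, with a median of 0.61 and a summed intensity of 17258 against 11643. The largest were Synpo2 at 1.5 and Tagln at 1.24, and probe sets of Synpo2 disagreed, from -0.44 to 1.45 on its other ones. The part of smooth muscle in the higher channel, phospholamban and TRIC-B values was not tested.

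The other genes of skeletal excitation-contraction coupling were mixed in direction. Of 33 measured genes on that list 23 were above the floor, 15 of them lower and 8 higher, where 52.8% of all genes above the floor were lower. The median of the 23 was -0.068, the value of Camk2d, in a range from -1.65 to 0.59. The highest were S100a1 at 0.59, Atp1b2 at 0.55 and Mtmr14 at 0.43. At the 2-fold threshold 3 were lower and none higher, against 3.18% and 1.88% of all genes above the floor. The 3 were Sypl2, or mitsugumin-29, a protein of the triad membranes, at 185 against 577 (difference -1.65, and -1.70 on its second probe set), Sln, and Hrc, a calcium-binding protein of the store, at 68.6 against 145 (difference -1.08). The caveolin of muscle, Cav3, differed by -0.94, sarcalumenin, Srl, a calcium-binding glycoprotein of the reticulum, by -0.91, and Cacna2d1, the alpha2-delta subunit of the voltage sensor, by -0.68. Camk2b, a calmodulin-dependent kinase, differed by -0.62 and the membrane repair protein Dysf by -0.61. These lower genes were named because they had the largest differences of the list.

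Junctophilins, which tie tubule to store, were not among these, as Jph1 differed by -0.47 and Jph2 by 0.051. Stac3, an adaptor needed for the voltage sensor, was under the floor at 15.4 and 21.0, and the muscle sodium channel Scn4a was under 16 on both arrays. Asph, which encodes the triadin partner junctin and also an enzyme of many tissues, had probe sets that disagreed. Its brightest stood at 4510 and 4523, whereas one at 182 and 403 differed by -1.15 and another at 115 and 183 by -0.68. Jph1, Jph2, Stac3, Scn4a and Asph were singled out after their values were seen.

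Genes of the contractile fibre were lower in the same sample. All 10 fast fibre markers were above the floor and lower, with a median of -1.06 and a summed intensity of 14071 after OSU-HDAC42 against 25664 after vehicle. Actn3, the fast alpha-actinin, differed by -2.09 and the fast myosin-binding protein Mybpc2 by -1.72, although a dim second probe set of Mybpc2 differed by 0.36. Of 10 markers common to muscle fibres 9 were lower, with a median of -1.0 and sums of 8020 against 15146. Among them were the giant protein Ttn at -1.94 and the titin cap Tcap at -1.80. Des, which smooth muscle also expresses and which stood on both lists, was the one that was higher (0.60). Of these 20 fibre genes 10 were 2-fold lower, and 6 reached the -1.49 of Ryr1, the least lowered of the 6 members. Over all genes above the floor the shares were 3.18% and 0.796%. How far the fibre content of the tissue accounts for the member values was not tested.

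Slow fibre markers were measured in full but 5 of 8 passed the floor, with a median of -0.22 and sums of 5993 against 8419. Mybpc1 differed by -1.85 and Myl3 by -1.27, while the slow troponin T, Tnnt1, was at 0.62 and the slow troponin I, Tnni1, at 0.078. Tpm3, which gave the median, was at -0.22, so that 3 were lower and 2 higher. The other Tpm3 probe sets above the floor were all higher, from 0.057 to 0.61. The slow myosin Myh7 stood at 15.3 and 16.8, under the floor. The slow fibre median was 0.11 with the mean of all probe sets and -1.27 with the floor at the 75th percentile. Beside Casq2, known from heart, the cardiac list had 3 of 8 genes above the floor, with a median of 0.14 and sums of 750 against 1326. Its members Nppa, Myl7 and Tnni3 were under 16 on both arrays, and the list's sum was mostly Sln, while Tnnt2 differed by 0.25. Beside Pvalb, which some neurons also express, 1 of 8 measured markers of neurons and Schwann cells passed the floor, Tubb3 at 55.2 and 40.3, with sums of 145 against 137, and 5 were under 16 on both arrays.

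Markers of the other cell types differed less, by their medians, than the fast and common fibre markers. Squamous epithelium, whose keratins Krt13 and Krt4 stood at 14438 and 11052 on the OSU-HDAC42 array, had a median of -0.050 over 9 genes and sums of 55654 against 57429, with Evpl at -0.69 and Ivl at 0.60. Endothelial markers had a median of -0.73 over 7 genes and sums of 2979 against 3012, with 5 lower, among them Vwf at -0.95 and Ramp2 at -0.90, and 2 higher, Kdr at 0.34 and Pecam1 at 0.32. The endothelial median was -0.33 with the mean of all probe sets and 0.041 with the floor at the 75th percentile. Fibroblast markers had a median of 0.28 over 8 genes and sums of 20807 against 16723, with Pdgfra at 0.94 and Dcn at 0.76. Macrophage markers had a median of 0.36 over 8 genes and sums of 1518 against 1057, with Mrc1 at 1.00 and Cd163 at 0.76.

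**Figure D4:**
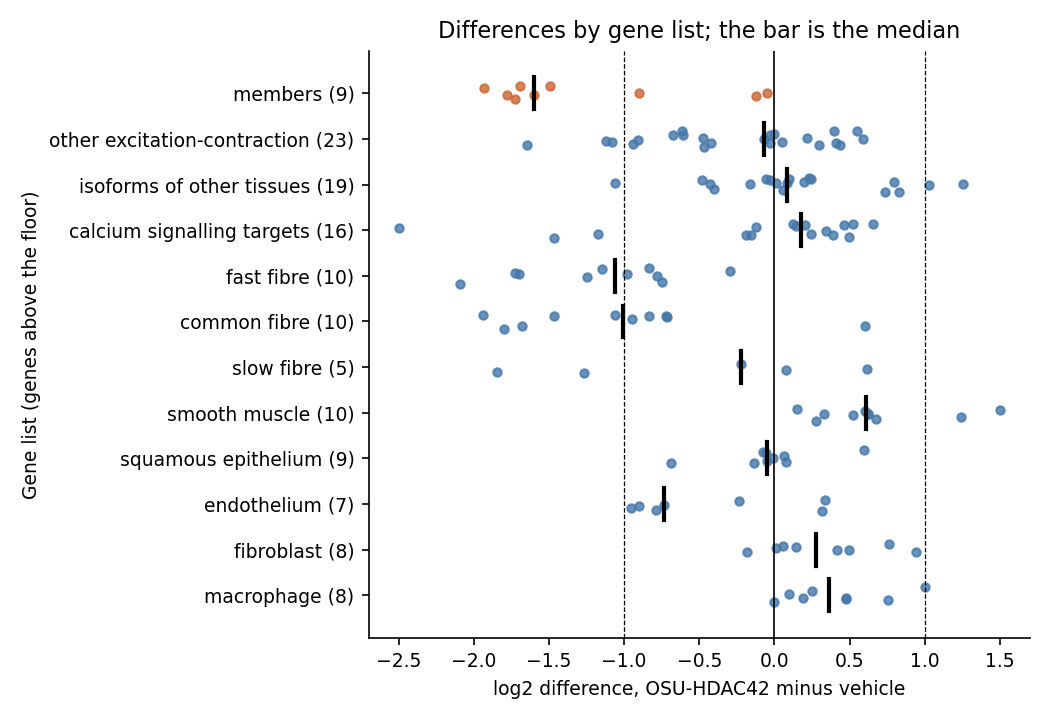
Log2 differences (OSU-HDAC42 minus vehicle) of the genes above the floor in 12 lists, 1 point per gene, with the median as a bar, the number of genes in brackets and dashed lines at 2-fold. The member median of -1.60 and the fast and common fibre medians of -1.06 and -1.0 lie to the left, and the smooth muscle median of 0.61 to the right.

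As a check of the RNA, beta-actin's 3′ control probe set read 6.29 times its 5′ one after OSU-HDAC42 and 7.76 times after vehicle. For GAPDH these ratios were 2.09 and 2.32. The part of RNA integrity in the member values was not tested.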

How the data were processed

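Esophageal tissue was hybridised to Affymetrix rat expression arrays, 1 per group. The deposited values are linear probe set intensities, as their range of 4.48 to 14947 outside the controls shows. The submitters' processing notes list GCOS and RMA without saying what each did. The scaling between arrays is not given in the sources used here. For RNA extraction the labels' protocols give Trizol and the design text a Qiagen kit.

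Of 31042 non-control probe sets, 20826 had 1 gene, 436 several and 9780 none in the platform annotation, and only the first were used. Symbols were updated through gene IDs to RefSeq. A gene was represented by its probe set with the highest mean. Intensities under 16 (28.4% and 29.2% of probe sets) were raised to 16, and log2 OSU-HDAC42 minus log2 vehicle was taken (Python 3.11.15, pandas 2.3.3). There is no test, since each group had 1 array, and that number limits the precision. The calling of 2-fold genes was tested on simulated data with known folds put only into genes well above the floor. Known falls or rises near the floor were not covered.

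The members and lists were chosen with earlier results of these data known. Of 187 list entries 178 were matched, 2 through a synonym. Named genes were all members, their listed relatives, up to 8 genes per pathway list and up to 2 per marker list with the largest differences above the floor. Other genes were named to complete a list or a check, after their values were seen. The alternatives were 3 scalings, 2 treatments of low values, 2 probe set rules, 2 floors and 2 thresholds.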

Additional observations from a re-analysis of the deposited data

How the results depend on the processing

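The count of 2-fold lower members was 6 under every scaling and every treatment of low values, 4 with the mean of all probe sets, 4 with the floor at the 75th percentile, 7 at 1.5-fold and 5 at 3-fold. Their median was -0.96 with the mean of all probe sets and otherwise between -1.60 and -1.55. By construction, dim probe sets enter that mean. The mean of all probe sets also moved the other excitation-contraction genes to a median of -0.37, slow fibre markers to 0.11, cardiac markers to -0.49 and endothelial markers to -0.33, and left 0 of the isoforms of other tissues 2-fold lower. With the mean of probe sets above the floor the excitation-contraction median was -0.42 and the slow fibre median 0.078. With the floor at the 75th percentile, where fewer genes remain, the medians were -1.27 for slow fibre, -1.12 for cardiac, 0.041 for endothelial and 1.00 for macrophage markers, and 0 isoforms were 2-fold lower. With no floor the neuron and Schwann median was 0. The excitation-contraction genes counted as lower were 8 at 1.5-fold and 1 at 3-fold, and 0 isoforms reached 3-fold. Over all genes, 303 lower and 179 higher became 116 and 73 with the higher floor, 1040 and 725 at 1.5-fold and 58 and 31 at 3-fold. Single named gene values were counted once per gene and setting, under the scalings, the treatments of low values and the probe set rules. Of these values, 414 moved by less than 0.29, the probe-level SD, and 20 by more, and none of the called ones reversed. Some could not move by construction, such as those of genes with 1 probe set under the probe set rules. Under the 3 scalings the median of all genes above the floor lay between -0.037 and -0.0049. Low intensity limits Cacng1, Cacna1s, Jsrp1 and the dim probe sets of Trdn and Tmem38a. Jsrp1 and Cacna1s reached the floor on the vehicle array only. No paired analysis was possible because there was 1 array per group. Apart from what follows by construction, the cause was not tested.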

Other observations

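Genes that act on or answer to calcium downstream of the store differed among themselves. Of 18 measured calcium signalling genes 16 were above the floor, with a median of 0.17. Of the 16, 3 were 2-fold lower and none 2-fold higher, against 3.18% and 1.88% of all genes above the floor. The 3 are known from striated muscle. Mylk2, the skeletal myosin light chain kinase that calmodulin switches on, stood at 22.6 after OSU-HDAC42 and 127 after vehicle (difference -2.50). This probe set reached the floor on the vehicle array only. A second Mylk2 probe set, also above the floor, differed by -0.33. The Mylk2 difference was -1.99 with values under 32 raised to 32 and -1.41 with the mean of all probe sets. The calsarcins Myoz2 and Myoz1, Z-disc proteins that bind calcineurin, differed by -1.47 and -1.17. The other genes named from this list were higher, with the calcineurin-driven factors Nfatc1 at 0.66 and Nfatc2 at 0.52, the calcineurin regulators Rcan2 at 0.49 and Rcan1 at 0.39 and the kinase Camk1 at 0.46. A dim second probe set of Rcan2 differed by -0.54.

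The RGK family of small GTPases binds calcium channel beta subunits and lowers the current of voltage-gated calcium channels. Of its 4 genes, 2 were above the floor and both were 2-fold higher, where 1.88% of all genes above it were. Rem2 stood at 288 after OSU-HDAC42 and 28.2 after vehicle (difference 3.35), and its second probe set was under 16 on both arrays. Rem2 reached the floor on the OSU-HDAC42 array only, the array on which it was high. With the mean of all probe sets Rem2 differed by 1.67. The list was made with earlier results of these data known, so nothing can be read from its gap to the share of 1.88%. Gem stood at 138 and 55.3 (difference 1.32). Rrad, the form best known from muscle, was under the floor at 30.7 and 17.8, and Rem1 read 37.6 on both arrays.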
